A study of Homo sapiens with 9 samples.

Results

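Hexose transporters carry glucose, fructose and related sugars across membranes, and their RNA was followed here in A549 cells, a long-established line from a human lung adenocarcinoma. Of the 57905 gene IDs in the deposited count table, the 10 whose symbols are SLC2A1, SLC2A2, SLC2A3, SLC2A5, SLC2A6, SLC2A8, SLC2A10, SLC2A12, SLC5A1 and SLC5A9 were taken. They were listed by name, with earlier results of these data known, and are only a part of the 2 gene families. All 10 symbols matched a gene ID. The series asks how the polyol pathway, in which AKR1B1 (aldose reductase) reduces glucose to sorbitol and SORD (sorbitol dehydrogenase) oxidises sorbitol to fructose, relates to aggressive behaviour of cancer cells. RNA from 9 cultures was sequenced in 3 groups of 3 libraries: shAKR1B1, A549 cells with a short hairpin RNA (shRNA, a small RNA that directs degradation of a matching transcript) against AKR1B1; shSORD, A549 cells with an shRNA against SORD; and plko, A549 control cells. The control libraries carry the name plko in their titles and the words scrambled controls as their treatment, so a scrambled hairpin and a vector without a hairpin cannot be told apart. All 3 groups grew in medium with 5% FBS and carry no further treatment in the labels. Each target was lowered under 1 shRNA label in 1 cell line, and whether the 3 libraries of a group came from separate transductions is not given in the sources used here.

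The SLC2A genes encode the GLUT family, facilitative carriers that let sugar move down its concentration gradient. The SLC5A genes encode sodium-coupled cotransporters (the SGLT family for sugars), which use the sodium gradient kept up by the sodium pump to draw sugar into the cell. Many carcinomas and carcinoma cell lines, those of the lung among them, express SLC2A1 (GLUT1) strongly, and SLC2A3 (GLUT3) is a high-affinity glucose carrier best known from neurons. SLC5A1 (SGLT1) and SLC5A9 (SGLT4) are best known from the epithelia of the gut and kidney.

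The start regions of 4 of the genes are shown because SLC2A6 and SLC2A8 were lower in each knockdown, SLC2A1 was lower with shAKR1B1, and SLC2A12 had opposite changes in the 2 knockdowns. The sequences are those of RefSeq on GRCh38.p14, read 5′ to 3′ on the strand of the gene, from 250 bases before to 50 bases after the annotated start; RefSeq entries were matched for 8 of the 10 genes. They lie at chr1:42958819-42959118 on the minus strand (SLC2A1), chr9:133479050-133479349 on the minus strand (SLC2A6), chr9:127396919-127397218 on the plus strand (SLC2A8) and chr6:134052575-134052874 on the minus strand (SLC2A12). Capitals mark GC boxes (GGGCGG, the letters bound by SP1-type factors), CCAAT boxes (CCAAT) and hypoxia-response cores (ACGTG or GCGTG), each searched on both strands; no marked motifs overlapped.
SLC2A1: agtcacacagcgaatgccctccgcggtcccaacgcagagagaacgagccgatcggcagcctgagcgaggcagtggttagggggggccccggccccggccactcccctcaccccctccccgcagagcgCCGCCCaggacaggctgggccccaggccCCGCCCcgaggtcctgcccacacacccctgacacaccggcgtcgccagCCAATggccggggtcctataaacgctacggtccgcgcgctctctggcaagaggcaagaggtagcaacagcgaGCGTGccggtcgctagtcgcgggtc
SLC2A6: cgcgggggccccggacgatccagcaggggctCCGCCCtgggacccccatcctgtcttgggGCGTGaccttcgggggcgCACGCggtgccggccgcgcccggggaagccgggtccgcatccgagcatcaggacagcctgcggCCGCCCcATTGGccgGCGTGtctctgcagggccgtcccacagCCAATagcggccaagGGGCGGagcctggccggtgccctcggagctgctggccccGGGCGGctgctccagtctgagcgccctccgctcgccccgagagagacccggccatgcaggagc
SLC2A8: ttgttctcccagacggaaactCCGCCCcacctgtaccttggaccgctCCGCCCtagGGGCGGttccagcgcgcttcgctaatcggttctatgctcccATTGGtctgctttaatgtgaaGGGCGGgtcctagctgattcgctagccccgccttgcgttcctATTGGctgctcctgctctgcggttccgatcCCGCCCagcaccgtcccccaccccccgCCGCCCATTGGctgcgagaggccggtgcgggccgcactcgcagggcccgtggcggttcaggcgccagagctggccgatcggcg
SLC2A12: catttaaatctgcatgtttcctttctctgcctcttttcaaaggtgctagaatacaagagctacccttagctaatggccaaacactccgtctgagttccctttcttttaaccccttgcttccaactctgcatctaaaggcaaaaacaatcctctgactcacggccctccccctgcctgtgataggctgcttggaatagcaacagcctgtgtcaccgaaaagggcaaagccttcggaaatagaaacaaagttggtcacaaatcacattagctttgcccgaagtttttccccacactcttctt

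The SLC2A8 window held 6 GC boxes and 3 CCAAT boxes, and the SLC2A6 window held 4 GC boxes, 2 CCAAT boxes and 3 GCGTG cores. The SLC2A1 window held 2 GC boxes, 1 CCAAT box and 1 GCGTG core. None of these letters occurred in the SLC2A12 window, whose GC content was 45.7%, against 71.0% for SLC2A1, 76.0% for SLC2A6 and 67.0% for SLC2A8. Over 35116 RefSeq promoters of the same length, 45.0% held a GC box, 34.6% a CCAAT box, 21.4% an ACGTG core and 36.5% a GCGTG core. These matches describe the letters only.

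Total counts per library ranged from 32436524 to 43044456. A level is given as CPM, counts per 1e6 counts after TMM scaling of the library size, and levels of different genes are compared as CPM per kb of annotated exon. AKR1B1 was at 154 ± 11.7 CPM in shAKR1B1 cells, 1063 ± 103 CPM in shSORD cells and 1416 ± 34.7 CPM in plko cells (SD, n = 3 each). SORD was at 30.6 ± 0.411, 8.62 ± 0.414 and 42.9 ± 1.19 CPM in the same order of groups, so each hairpin lowered its own target most. All 6 epithelial markers passed the filter, with summed levels, carried mainly by KRT8 and KRT18, of 12317 to 12941 CPM in shAKR1B1, 10748 to 12800 CPM in shSORD and 8686 to 8908 CPM in plko libraries. KRT8, KRT18, KRT19, EPCAM and CDH1 were called higher in each knockdown over plko, while KRT7 was called lower, at 1189 ± 55.1 CPM in shAKR1B1, 1744 ± 208 CPM in shSORD and 2015 ± 36.9 CPM in plko cells (log2 fold changes -0.76 and -0.21, edgeR adjusted p = 3.07e-07 and 0.019). No immune marker of 3 and no endothelial marker of the 2 matched had more than 6 counts in a library. Of 5 fibroblast markers 4 passed the filter, with summed levels of 8.65 to 9.97 CPM in shAKR1B1, 33.9 to 55.2 CPM in shSORD and 14.5 to 16.3 CPM in plko libraries, while the fibroblast proteoglycan DCN had 0 to 4 counts. The shSORD libraries also differed more among themselves (chi-square per gene 12.8 to 26.9 between pairs) than the shAKR1B1 libraries (3.36 to 6.33) or the plko libraries (2.37 to 5.72). The part of these differences in the values below was not tested. In RNA from whole cultures, fewer cells that express a gene and less of its RNA per cell cannot be told apart.

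A549 cells of all 3 groups held mainly SLC2A1 and SLC2A3 among the 10 transporters, with lower levels of SLC2A6 and SLC2A8. In plko cells the order by CPM per kb was SLC2A1 (49.8 ± 1.21), SLC2A3 (11.2 ± 0.228), SLC2A6 (6.36 ± 0.183), SLC2A8 (3.73 ± 0.115), SLC2A12 (0.772 ± 0.0776), SLC5A9 (0.185 ± 0.0194) and SLC5A1 (0.0404 ± 0.0166). No neighbours in that plko order overlapped between libraries. In shAKR1B1 cells SLC5A9 stood at 3.17 ± 0.263 CPM per kb, beside SLC2A6 at 3.29 ± 0.136 and above SLC2A8 at 2.47 ± 0.259. The shAKR1B1 libraries of SLC5A9 and SLC2A6 overlapped on this scale, and those of SLC5A9 and SLC2A8 did not. In shSORD cells the order was SLC2A1 (54.2 ± 3.74), SLC2A3 (24.3 ± 1.51), SLC2A6 (4.36 ± 0.784), SLC2A8 (2.65 ± 0.147), SLC5A9 (1.69 ± 0.245), SLC2A12 (0.578 ± 0.0526) and SLC5A1 (0.0381 ± 0.0153), again with no overlap between neighbours. SLC2A2, SLC2A5 and SLC2A10 were at or near 0 in every group.

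**Figure D1:**
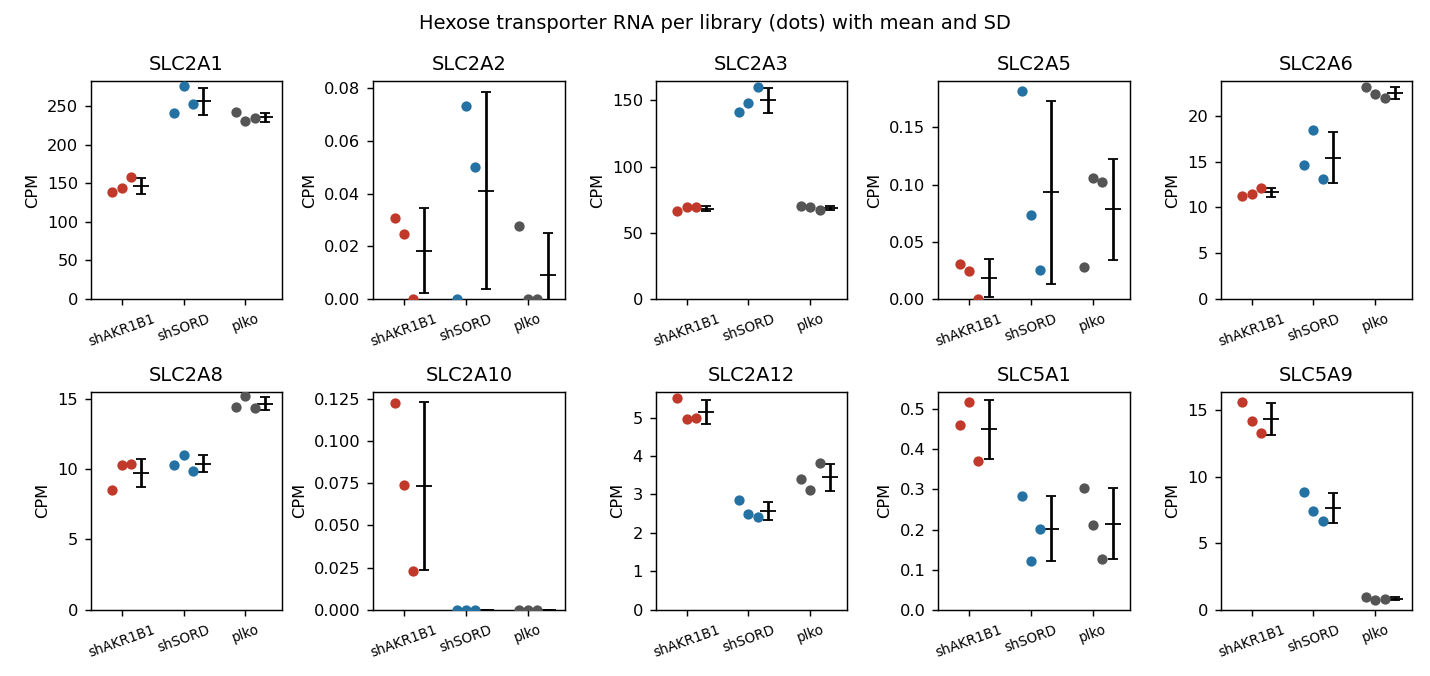
Level of each of the 10 transporters in CPM (vertical axes, each from 0 on its own scale) in the 3 libraries of shAKR1B1, shSORD and plko; dots are libraries and bars are the mean ± SD, cut at 0 where the SD reaches below it. SLC2A1 sits at 138 to 157 CPM in shAKR1B1 libraries and above 230 CPM in all others, SLC2A3 stands out in shSORD, and SLC5A9 lies below 1 CPM only in plko.

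Of the 10 transporters, 7 passed the filter on low counts and were tested with edgeR's quasi-likelihood test, Benjamini-Hochberg adjusted over 16916 genes and called at an adjusted p under 0.05. SLC5A1 passed that filter only through shAKR1B1, the group where it is highest, so that group itself decided its inclusion; it is described apart, and the counts here cover the other 6, a choice made after the values were seen. With shAKR1B1 against plko, SLC2A12 and SLC5A9 were higher and SLC2A1, SLC2A6 and SLC2A8 lower, 2 and 3 of the 6. The background was 27.8% of all tested genes called higher and 29.6% called lower (57.4% in either direction), and the share among the 6 was not tested against it. In 5 of the 6 the shAKR1B1 and plko libraries did not overlap, which held for 69.1% of all tested genes. The median log2 fold change of the 6 was -0.30, against -0.0024 over all tested genes. With shSORD against plko, SLC2A3 and SLC5A9 were higher and SLC2A6, SLC2A8 and SLC2A12 lower, against 27.5% of all tested genes called higher and 29% called lower (56.5% in either direction). Here 5 of the 6 did not overlap, which held for 60.1% of all tested genes, and the median of the 6 was -0.15, against -0.0021 over all genes. With shAKR1B1 against shSORD, SLC2A12 and SLC5A9 were higher and SLC2A1, SLC2A3 and SLC2A6 lower, against 15.5% called higher and 15.1% lower over all genes (30.7% in either direction). In that comparison 5 of the 6 did not overlap, which held for 40.1% of all tested genes, and the median of the 6 was -0.25, against 0.01 over all genes. The 2 comparisons with plko share its 3 libraries, so their values are given side by side and not counted as separate evidence.

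**Figure D2:**
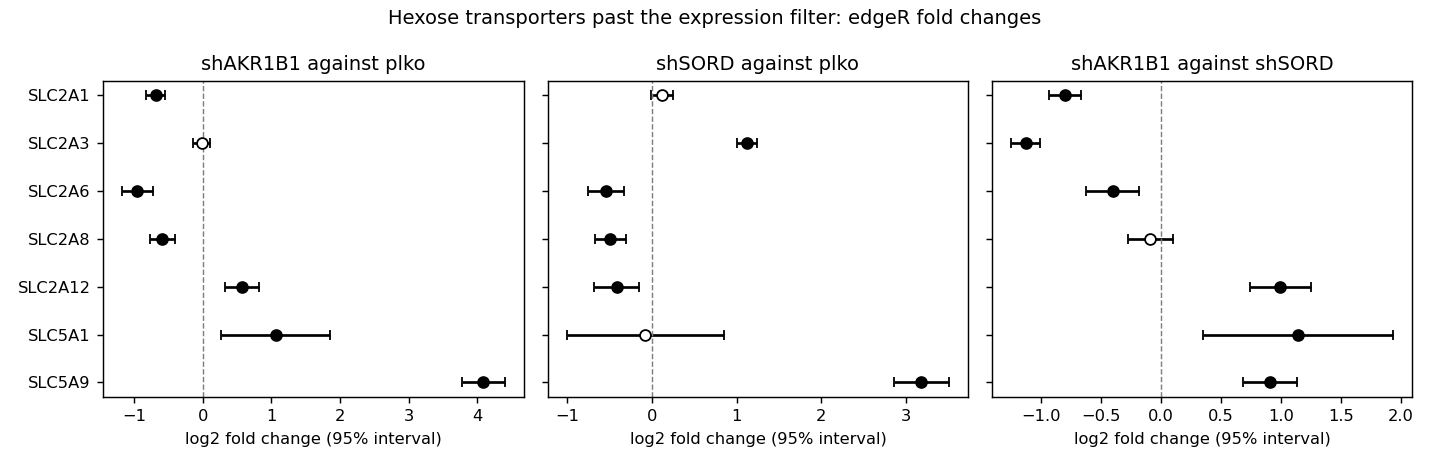
Log2 fold change (horizontal axes, each on its own scale) with its 95% interval for the 7 tested transporters in the 3 comparisons; filled dots were called at an adjusted p under 0.05 and open dots were not. SLC5A9 has the highest value against plko in both knockdowns (4.09 with shAKR1B1 and 3.18 with shSORD), SLC2A1 and SLC2A3 are each called against plko in 1 knockdown, and SLC2A12 lies on opposite sides of 0.

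SLC2A1 (ENSG00000117394) encodes GLUT1, the basal glucose carrier of most cells. Its level was 138, 144 and 157 CPM in the shAKR1B1 libraries, 240.5, 275 and 252 CPM in the shSORD libraries, and 242, 231 and 234 CPM in the plko libraries. Every shAKR1B1 library lay below all others, while the lowest shSORD library fell among the plko libraries. SLC2A1 fell with shAKR1B1 to 62.2% of plko (log2 fold change -0.68, SE 0.0624, 95% interval -0.82 to -0.55, edgeR adjusted p = 2.87e-07). With shSORD its log2 fold change against plko was 0.12 (95% interval -0.01 to 0.25, edgeR adjusted p = 0.109). That value passed the threshold with upper-quartile scaling (0.19, adjusted p = 0.0162), total-count scaling (0.19, 0.018), a stricter filter (0.16, 0.0361) or without shSORD replicate 1 (0.18, 0.0414). SLC2A1 was lower in shAKR1B1 than in shSORD cells by a log2 fold change of -0.81 (SE 0.0624, edgeR adjusted p = 1.77e-07), which is a direct test of the difference between the knockdowns. In GENCODE 29, 2.71% of the SLC2A1 exon bases overlap the opposite-strand SLC2A1-AS1, which had 32 to 69 counts per library.

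SLC2A3 (ENSG00000059804) encodes GLUT3. Its level was 66.4, 69.3 and 69.3 CPM in the shAKR1B1 libraries, 141, 148 and 159.8 CPM in the shSORD libraries, and 70.0, 69.3 and 67.3 CPM in the plko libraries. The shSORD libraries stood above all others, and the shAKR1B1 and plko libraries overlapped. SLC2A3 rose 2.17-fold with shSORD over plko (log2 fold change 1.12, SE 0.0568, 95% interval 1.00 to 1.24, edgeR adjusted p = 9.02e-10). With shAKR1B1 the log2 fold change against plko was -0.01, and its 95% interval of -0.13 to 0.11 bounds a change in either direction (edgeR adjusted p = 0.876). Between the knockdowns it was lower in shAKR1B1 than in shSORD cells by a log2 fold change of -1.13 (SE 0.0568, edgeR adjusted p = 2.17e-09). The summed fibroblast markers, given above and carried mainly by COL1A1, were also highest in the shSORD libraries. Their part in the SLC2A3 value was not tested.

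Reads of SLC2A3 can be shared with SLC2A14, a closely similar gene for a related glucose carrier. Of the 3866 stretches of 50 bases in the longest SLC2A3 transcript, 23.0% also occur in SLC2A14, and 7.05% of the stretches of 100 bases do. SLC2A14 had 11, 10 and 10 counts in the shAKR1B1 libraries, 57, 38 and 42 in the shSORD libraries, and 17, 26 and 15 in the plko libraries. It was called higher with shSORD against plko (log2 fold change 1.16, edgeR adjusted p = 0.00179) and lower with shAKR1B1 (-0.93, edgeR adjusted p = 0.0327), though the shAKR1B1 call ended with DESeq2 (adjusted p = 0.0516) and without plko replicate 2 (0.161), shAKR1B1 replicate 2 (0.0914) or shAKR1B1 replicate 3 (0.103). Per length, SLC2A14 was at 0.207 ± 0.0516 CPM per kb in shSORD cells, far below the 24.3 ± 1.51 CPM per kb of SLC2A3 in the same cells.

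SLC2A6 (ENSG00000160326) and SLC2A8 (ENSG00000136856) encode GLUT6 and GLUT8, carriers that reside mainly on lysosomes and other intracellular membranes. SLC2A6 was at 11.2, 11.5 and 12.2 CPM in the shAKR1B1 libraries, 14.7, 18.5 and 13.1 CPM in the shSORD libraries, and 23.2, 22.4 and 21.9 CPM in the plko libraries. The 3 groups did not overlap, and shSORD replicate 2 was the highest of the knockdown libraries. SLC2A6 fell to 51.8% of plko with shAKR1B1 (log2 fold change -0.95, SE 0.103, edgeR adjusted p = 1.75e-06) and to 68.6% with shSORD (-0.54, SE 0.10, edgeR adjusted p = 0.000309). It was lower in shAKR1B1 than in shSORD cells as well (log2 fold change -0.40, 95% interval -0.63 to -0.18, edgeR adjusted p = 0.00839). Without shSORD replicate 2 that difference between the knockdowns was -0.25 and still called.

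SLC2A8 was at 8.55, 10.3 and 10.3 CPM in the shAKR1B1 libraries, 10.3, 11.02 and 9.88 CPM in the shSORD libraries, and 14.4, 15.2 and 14.4 CPM in the plko libraries. All knockdown libraries lay below all plko libraries, and the knockdowns overlapped each other. It fell to 66.6% of plko with shAKR1B1 (log2 fold change -0.59, SE 0.0860, edgeR adjusted p = 3.66e-05) and to 71.0% with shSORD (-0.49, SE 0.0853, edgeR adjusted p = 0.000176). Between shAKR1B1 and shSORD the log2 fold change was -0.09, with a 95% interval of -0.28 to 0.10 (edgeR adjusted p = 0.462).

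SLC2A12 (ENSG00000146411) encodes GLUT12, a glucose carrier of muscle, fat and other tissues. Its level was 5.51, 4.96 and 4.99 CPM in the shAKR1B1 libraries, 2.85, 2.49 and 2.41 CPM in the shSORD libraries, and 3.40, 3.13 and 3.82 CPM in the plko libraries. The shAKR1B1 libraries were highest, the plko libraries lay between, the shSORD libraries were lowest, and no groups overlapped. SLC2A12 rose 1.49-fold with shAKR1B1 over plko (log2 fold change 0.58, SE 0.116, edgeR adjusted p = 0.00062) and fell to 74.8% of plko with shSORD (-0.42, SE 0.125, edgeR adjusted p = 0.0101). The shSORD call ended without plko replicate 3 (-0.33, adjusted p = 0.0691). The knockdowns differed from each other by a log2 fold change of 0.99, shAKR1B1 over shSORD (SE 0.119, edgeR adjusted p = 1.47e-05). In GENCODE 29, 1736 of the 4468 exon bases of SLC2A12 (38.9%) overlap TBPL1, a gene on the opposite strand, and the strand setting of the counting is not given in the sources used here. TBPL1 was not called in any of the comparisons. Its log2 fold changes were 0.01 for shAKR1B1 and -0.24 for shSORD against plko, and 0.25 for shAKR1B1 against shSORD. The shSORD value against plko lay at the threshold (edgeR adjusted p = 0.05, interval -0.44 to -0.03). All shSORD libraries of TBPL1 lay below all plko libraries, the same direction as SLC2A12. The part of reads shared with TBPL1 in the SLC2A12 values was not tested.

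SLC5A9 (ENSG00000117834) encodes SGLT4, a sodium-coupled carrier known to take mannose, glucose and fructose. It had 511, 574 and 573 counts in the shAKR1B1 libraries, 342, 305 and 266 in the shSORD libraries, and 34, 29 and 32 in the plko libraries. These counts correspond to 15.7, 14.2 and 13.3 CPM in shAKR1B1, 8.86, 7.44 and 6.67 CPM in shSORD, and 0.939, 0.769 and 0.814 CPM in plko libraries. The 3 groups were fully separated. SLC5A9 rose 17.0-fold with shAKR1B1 (log2 fold change 4.09, SE 0.145, 95% interval 3.78 to 4.40, edgeR adjusted p = 1.29e-11) and 9.08-fold with shSORD over plko (3.18, SE 0.153, 95% interval 2.86 to 3.51, edgeR adjusted p = 5.32e-10). The shAKR1B1 level was 1.87-fold that in shSORD cells (log2 fold change 0.91, SE 0.105, edgeR adjusted p = 1.04e-05). An antisense gene shares 13.5% of the SLC5A9 exon bases and had 0 to 5 counts per library. The summed epithelial markers, given above, were also higher in the shAKR1B1 and shSORD libraries than in the plko libraries, as were 5 of the 6 markers but not KRT7, and their part in the SLC5A9 value was not tested.

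SLC5A1 (ENSG00000100170) encodes SGLT1, the intestinal cotransporter of glucose and galactose, and was close to the limit of these libraries. It had 15, 21 and 16 counts in the shAKR1B1 libraries, 11, 5 and 8 in the shSORD libraries, and 11, 8 and 5 in the plko libraries. In CPM, the shAKR1B1 libraries (0.371 to 0.518) lay above the plko libraries (0.127 to 0.304), and the shSORD libraries (0.122 to 0.285) overlapped plko. Only the shAKR1B1 group put 3 libraries past the filter's cutoff of 0.254 counts per 1e6, with 1 shSORD and 1 plko library past it, so the 2 values with shAKR1B1 below are a description of a gene let in by the group where it is high. Its log2 fold change with shAKR1B1 against plko was 1.07, with a 95% interval of 0.27 to 1.86 (edgeR adjusted p = 0.024). The call ended with DESeq2 (adjusted p = 0.0659) and without plko replicate 2 (0.0605), plko replicate 3 (0.106), shAKR1B1 replicate 1 (0.0563) or shAKR1B1 replicate 2 (0.0821). Against shSORD, the shAKR1B1 value was 1.14 (edgeR adjusted p = 0.0302), and that call ended with DESeq2 (0.0799) and without shAKR1B1 replicate 1 (0.0759), shAKR1B1 replicate 2 (0.104) or shSORD replicate 2 (0.108). With shSORD against plko the interval of -1.01 to 0.85 around a log2 fold change of -0.08 spans changes in either direction, so that no change was detectable at this depth.

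SLC2A2 (ENSG00000163581), SLC2A5 (ENSG00000142583) and SLC2A10 (ENSG00000197496) did not pass the filter. SLC2A2 encodes GLUT2, the carrier of liver and pancreatic beta cells, and SLC2A5 encodes GLUT5, the main fructose carrier. SLC2A2 had 1, 1 and 0 counts in the shAKR1B1 libraries, 0, 3 and 2 in the shSORD libraries, and 1, 0 and 0 in the plko libraries. SLC2A5 had 1, 1 and 0 counts in the shAKR1B1 libraries, 7, 3 and 1 in the shSORD libraries, and 1, 4 and 4 in the plko libraries. SLC2A10, whose product GLUT10 lies on intracellular membranes and whose loss causes arterial tortuosity syndrome, had 4, 3 and 1 counts in the shAKR1B1 libraries and 0 in all shSORD and plko libraries. A count of 0 over the 3 libraries of a group allows up to 0.0256 CPM in shSORD and 0.0258 CPM in plko cells, counting error only, where 3 counts are taken as the limit. Without the filter, edgeR gave SLC2A10 an adjusted p of 0.0384 against plko and 0.0568 against shSORD, and neither SLC2A2 nor SLC2A5 passed the threshold in any comparison (adjusted p from 0.168 to 0.927). These counts are too few to support a level.

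The summed RNA of the 10 transporters, and its makeup, differed between the groups. The sum was 50.1, 52.0 and 54.8 CPM per kb in the shAKR1B1 libraries, 83.3, 92.6 and 87.6 in the shSORD libraries, and 73.8, 71.2 and 71.4 in the plko libraries. All shAKR1B1 libraries lay below and all shSORD libraries above the plko libraries, with an exact two-sided permutation p = 0.1 in each comparison, the smallest that 3 against 3 libraries allow. SLC2A1 made up 59.3 ± 1.39% of the sum in shAKR1B1 cells, 61.7 ± 1.09% in shSORD cells and 69.1 ± 0.457% in plko cells (SD, n = 3 each). The shares of SLC2A1 nearly met between the knockdowns, at 58.2 to 60.8% in shAKR1B1 and 60.9 to 62.9% in shSORD libraries. SLC2A3 made up 21.2 ± 0.601%, 27.7 ± 1.81% and 15.5 ± 0.266% in shAKR1B1, shSORD and plko cells. SLC5A9 made up 6.08 ± 0.767% in shAKR1B1, 1.93 ± 0.361% in shSORD and 0.257 ± 0.0217% in plko cells. SLC2A3 and SLC5A9 held a larger share in every knockdown library than in any plko library. The share of SLC2A6 was 6.29 ± 0.0357% in shAKR1B1, 4.95 ± 0.709% in shSORD and 8.81 ± 0.122% in plko cells. The share of SLC2A8 was 4.73 ± 0.352% in shAKR1B1, 3.01 ± 0.137% in shSORD and 5.17 ± 0.230% in plko cells, with overlap between shAKR1B1 and plko libraries. A share also depends on the sum, which was lower in shAKR1B1 than in shSORD cells. By level, SLC2A6 was lower in shAKR1B1 than in shSORD cells (3.29 against 4.36 CPM per kb), though its share was higher. The levels of SLC2A8 (2.47 against 2.65 CPM per kb) were not called different between the knockdowns.

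The ratio of SLC2A3 to SLC2A1, each per kb, was 0.369, 0.369 and 0.338 in the shAKR1B1 libraries, 0.451, 0.413 and 0.486 in the shSORD libraries, and 0.222, 0.231 and 0.221 in the plko libraries. Every knockdown library had a ratio above every plko library. In shAKR1B1 cells SLC2A1 was the gene called lower, and in shSORD cells SLC2A3 was the gene called higher. The exact two-sided permutation p was 0.1, again the smallest possible, for this ratio and for each of the shares of SLC2A1, SLC2A3 and SLC5A9 in all 3 comparisons, so none could reach 0.05. RNA shares do not give amounts of carrier protein or uptake of sugar, which were not measured here.

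**Figure D3:**
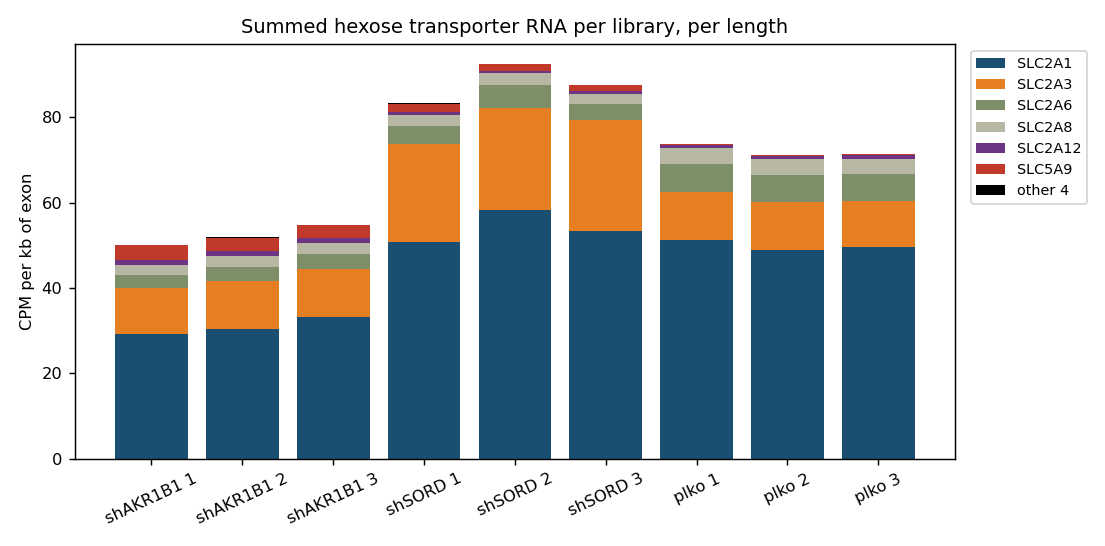
Summed level of the 10 transporters in CPM per kb of exon (vertical axis, from 0) in each of the 9 libraries, stacked by gene; the 4 genes grouped as other are SLC5A1, SLC2A2, SLC2A5 and SLC2A10. The sum is 50.1 to 54.8 in shAKR1B1, 83.3 to 92.6 in shSORD and 71.2 to 73.8 in plko libraries, and the SLC2A3 band is widest in shSORD.

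For SLC2A1, SLC2A3 and SLC5A9 the 3 genes with the nearest pattern over the 9 libraries were found by the root-mean-square difference of centred log2 CPM among the tested genes. For SLC2A1 these were L1CAM, an adhesion molecule (0.0590), TIMP2, an inhibitor of matrix metalloproteinases (0.0609), and NDST1, an enzyme of heparan sulfate synthesis (0.0641). TIMP2 averaged 135 CPM in shAKR1B1, 225 CPM in shSORD and 204 CPM in plko cells. For SLC2A3 they were MYOCD, a coactivator of smooth muscle genes (0.105), LBH, a transcription cofactor (0.115), and IGDCC4, a membrane protein of the immunoglobulin superfamily (0.117). LBH averaged 41.0 CPM in shAKR1B1, 78.2 CPM in shSORD and 39.7 CPM in plko cells. For SLC5A9 they were MYO1A, a myosin of the intestinal brush border (0.151), TM4SF20, a tetraspan membrane protein (0.176), and F7, coagulation factor VII (0.177). MYO1A averaged 22.7 CPM in shAKR1B1, 13.3 CPM in shSORD and 1.62 CPM in plko cells. The measure ranks likeness over 9 libraries that fall into 3 groups and carries no test.

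Other genes with SLC2A, SLC5A and SLC50A symbols were followed as a list of 17, of which 10 were tested. With shAKR1B1 against plko 6 were higher and 2 lower, against 27.8% and 29.6% of all tested genes. The median log2 fold change was 0.59. With shSORD 6 were higher and 1 lower, against 27.5% and 29%, with a median of 0.66. The median over all tested genes was -0.002 in each comparison. The list goes by symbol, and not all of its products carry sugars or polyols. SLC5A6, which is not a sugar or polyol carrier, was among the lower in each knockdown (log2 fold changes -0.73 and -0.68, edgeR adjusted p = 2.46e-07 and 6.45e-07). The stricter filter left 6 of these genes in the test, of which 5 were called with shAKR1B1 against plko. In the main fit 57.4% of all tested genes were called in that comparison. SLC5A2, the kidney glucose cotransporter SGLT2, averaged 0.887 ± 0.0751 CPM in shAKR1B1, 1.18 ± 0.225 CPM in shSORD and 0.186 ± 0.0304 CPM in plko cells. All its plko libraries lay below the filter's cutoff, so it passed only through the knockdown libraries, where it is high. Its log2 fold changes against plko are thus a description (2.24 and 2.65, edgeR adjusted p = 1e-05 and 1.25e-06). The 6 higher genes in each knockdown include SLC5A2. SLC5A11, a sodium-coupled inositol carrier, averaged 6.61 ± 0.305, 3.99 ± 0.244 and 1.73 ± 0.211 CPM in shAKR1B1, shSORD and plko cells. SLC2A13, a proton-coupled inositol carrier, averaged 20.5 ± 1.74, 11.3 ± 1.15 and 6.90 ± 0.699 CPM in the same order. Both inositol carriers rose in each knockdown over plko (log2 fold changes 0.71 to 1.93) and were higher in shAKR1B1 than in shSORD cells (0.73 for SLC5A11 and 0.85 for SLC2A13, edgeR adjusted p = 9.27e-05 and 7.34e-06). SLC2A9, a urate carrier, was instead lower in shAKR1B1 than in shSORD cells, at 1.11 ± 0.169 CPM in shAKR1B1, 2.59 ± 0.542 CPM in shSORD and 0.701 ± 0.114 CPM in plko cells. Its log2 fold change was -1.24 for shAKR1B1 against shSORD (edgeR adjusted p = 0.000142). Against plko it was 1.89 with shSORD (2.14e-06) and 0.65 with shAKR1B1 (0.0276), and the shAKR1B1 call ended without plko replicate 2 or 3 or without shAKR1B1 replicate 1 or 2 (adjusted p from 0.0522 to 0.0978). SLC5A3, a further inositol carrier, was at 0 counts in all 9 libraries. In GENCODE 29 it shares 273 of its 11576 exon bases (2.36%) with MRPS6 on the same strand. The reason for the 0 counts was not tested. Between the knockdowns 2 of the 10 were higher in shAKR1B1 than in shSORD and 2 lower, against 15.5% and 15.1% of all tested genes.

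Enzymes that phosphorylate hexoses or lead into and out of fructose made a list of 16, of which 11 were tested. With shAKR1B1 against plko 2 were higher and 6 lower, against 27.8% and 29.6% of all tested genes. With shSORD 2 were higher and 6 lower, against 27.5% and 29%. The 6 lower include AKR1B1 and SORD in each comparison, and the fall of each hairpin's own target was set by the design. The medians, with both targets included, were -0.18 with shAKR1B1 and -0.26 with shSORD. HK2, an inducible hexokinase, averaged 1.25 ± 0.225 CPM in shAKR1B1, 0.745 ± 0.0720 CPM in shSORD and 1.90 ± 0.244 CPM in plko cells (log2 fold changes against plko -0.62 and -1.35, edgeR adjusted p = 0.00793 and 3.11e-05). HKDC1, a hexokinase-like enzyme, averaged 119 ± 7.0 CPM in shAKR1B1, 145 ± 13.6 CPM in shSORD and 103 ± 2.41 CPM in plko cells (0.21 and 0.48, edgeR adjusted p = 0.0173 and 2.7e-05). The shAKR1B1 call of HKDC1 ended without plko replicate 1 (adjusted p = 0.0713) or shAKR1B1 replicate 3 (0.0858). Between shAKR1B1 and shSORD 5 enzymes were higher and 3 lower, against 15.5% and 15.1% of all tested genes. SORD was among the higher and AKR1B1 among the lower, and both are hairpin targets.

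Of 17 genes for the trafficking, turnover and activity of transporters, 15 were tested. With shAKR1B1 against plko 7 were higher and 3 lower (median -0.02), against 27.8% and 29.6% of all tested genes. With shSORD 6 were higher and 2 lower (median 0.08), against 27.5% and 29%. PDZK1, a scaffold that binds membrane transporters, averaged 14.98 ± 1.11 CPM in shAKR1B1, 14.6 ± 0.857 CPM in shSORD and 2.21 ± 0.499 CPM in plko cells (log2 fold changes against plko 2.75 and 2.71, edgeR adjusted p = 2.11e-10 and 4.33e-10). Its partner PDZK1IP1, a small membrane protein known to raise the activity of sodium-coupled glucose carriers, averaged 7.33 ± 0.769, 9.78 ± 0.977 and 1.48 ± 0.0617 CPM in shAKR1B1, shSORD and plko cells (2.30 and 2.72, edgeR adjusted p = 1.94e-09 and 4.23e-10). STOM, or stomatin, a membrane protein that binds GLUT1, averaged 251 ± 14.1 CPM in shAKR1B1, 260.1 ± 17.6 CPM in shSORD and 80.1 ± 2.01 CPM in plko cells (1.65 and 1.70, edgeR adjusted p = 2.26e-11 and 3.43e-11). ARRDC4, an arrestin-like protein that lowers glucose uptake, rose in each knockdown over plko (1.39 and 1.00, edgeR adjusted p = 8.76e-06 and 0.000264). Between shAKR1B1 and shSORD 1 gene was higher and 1 lower, against 15.5% and 15.1% of all tested genes. With the replicate number as a block over all 9 libraries, 3 were higher and 2 lower.

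The sodium pump keeps the gradient that SLC5A carriers draw on, and 9 of its 14 listed subunit genes were tested. With shAKR1B1 against plko 5 were higher and 1 lower (median 0.33), against 27.8% and 29.6% of all tested genes. With shSORD 7 were higher and 0 lower (median 0.21), against 27.5% and 29%. FXYD2, the gamma subunit best known from the kidney, averaged 14.6 ± 1.18 CPM in shAKR1B1, 12.8 ± 1.46 CPM in shSORD and 3.16 ± 0.301 CPM in plko cells (log2 fold changes against plko 2.21 and 2.03, edgeR adjusted p = 5.35e-10 and 2.24e-09). FXYD6, a further regulatory subunit, rose in each knockdown over plko (0.88 and 0.94, edgeR adjusted p = 0.000283 and 0.000153). FXYD3 had 5, 7 and 10 counts in the shAKR1B1 libraries, 48, 64 and 25 in the shSORD libraries, and 0, 4 and 5 in the plko libraries. It passed the filter only through its 3 shSORD libraries, so its log2 fold change of 3.80 with shSORD against plko (edgeR adjusted p = 1.86e-05) is a description, beside 1.22 with shAKR1B1 against plko (edgeR adjusted p = 0.169). Leaving FXYD3 out, 6 of 8 subunits were higher with shSORD. Between shAKR1B1 and shSORD 2 subunits were lower and 0 higher, against 15.1% and 15.5% of all tested genes, FXYD3 being 1 of the 2.

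Of 14 transcription factors known to act on hexose transporter genes, 13 were tested. With shAKR1B1 against plko 5 were higher and 5 lower (median -0.02), and with shSORD 6 were higher and 5 lower (median 0.08). HNF4A, a nuclear receptor of liver, kidney and gut, averaged 94.1 ± 2.57 CPM in shAKR1B1, 86.5 ± 4.05 CPM in shSORD and 34.6 ± 0.819 CPM in plko cells (log2 fold changes against plko 1.44 and 1.32, edgeR adjusted p = 4.16e-11 and 1.72e-10). MLXIPL, the carbohydrate-response factor ChREBP, rose in each knockdown over plko (0.93 and 1.00, edgeR adjusted p = 0.000201 and 0.000107). MYC, which is known to raise SLC2A1 transcription, averaged 97.4 ± 4.50 CPM in shAKR1B1, 93.7 ± 5.06 CPM in shSORD and 150.2 ± 4.34 CPM in plko cells, and fell in each knockdown (-0.63 and -0.68, edgeR adjusted p = 2.97e-07 and 1.6e-07). Between shAKR1B1 and shSORD 5 factors were higher and 2 lower. The counts of these lists are read against the shares of all tested genes given above. With shAKR1B1 against plko 27.8% were called higher and 29.6% lower, and with shSORD against plko 27.5% and 29%. For shAKR1B1 against shSORD 15.5% were called higher and 15.1% lower. No list was tested against these shares.

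**Figure D4:**
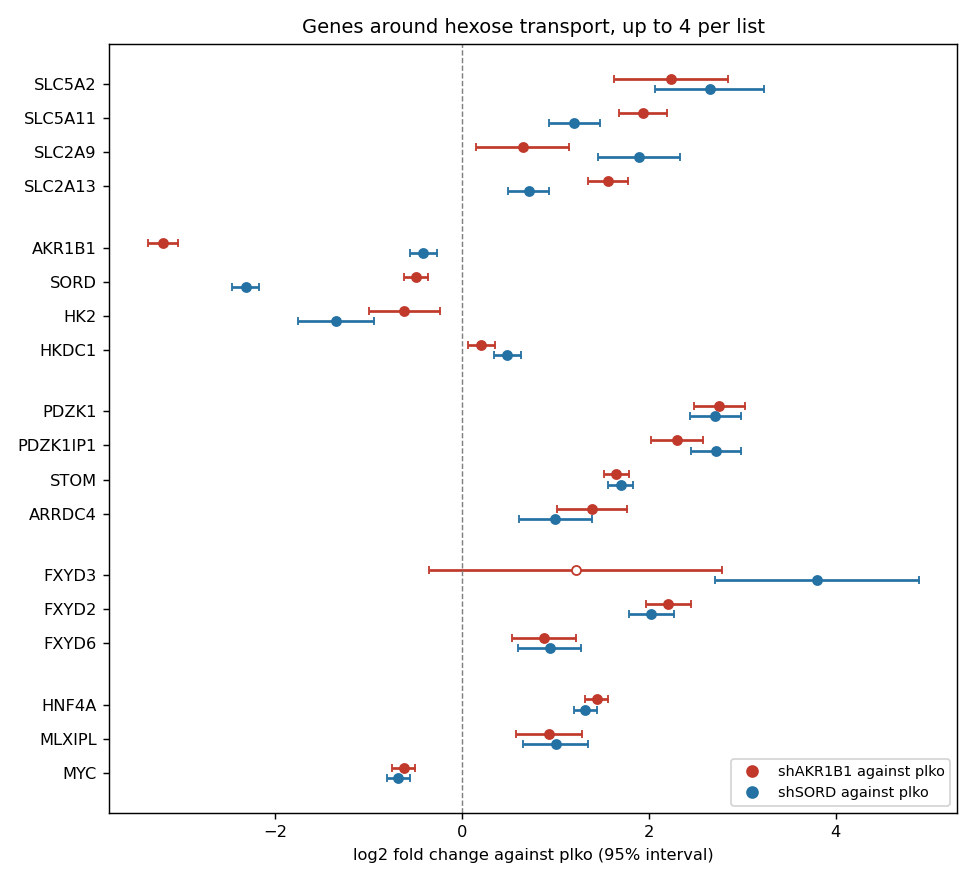
Log2 fold change against plko (horizontal axis) with its 95% interval for up to 4 genes of each of 5 lists, from top to bottom other carriers, hexose enzymes, trafficking and activity, sodium pump subunits and transcription factors; red dots are shAKR1B1 and blue dots shSORD, and open dots were not called. Only FXYD3 with shAKR1B1 (1.22) is open, and AKR1B1, SORD, HK2 and MYC lie below 0.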

How the data were processed

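RNA of 9 A549 cultures, 3 libraries in each of shAKR1B1, shSORD and plko, was analysed from 1 table of whole-number counts per Ensembl gene ID, deposited by the authors without normalization. Per the labels' protocols, extraction used Qiazol with miRNeasy columns and the library kit was TruSeq stranded mRNA. The submitters' processing notes list the build GRCh37 and the tools DESeq2 1.12.3, Subread with featureCounts 1.5.1, STAR 2.5.2b and cutadapt 1.9.1. For the annotation release, the strand setting and reads with several matches, the handling is not given in the sources used here.

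Symbols matched 51996 of 57905 IDs. Counts were tested in R 4.3.3 with edgeR 4.0.16: TMM scaling, the default filter by group (16916 genes kept), a quasi-likelihood fit with 1 mean per group over 9 libraries (6 residual degrees of freedom, common biological variation 6.59%), and Benjamini-Hochberg adjustment in each comparison. The SE is the absolute log2 fold change over the square root of F, intervals are 95%, and fitted values used a prior count of 0.125. The fit was tested on simulated data. Exon lengths and overlaps came from GENCODE 29 on another build, so they carry no coordinates of the counts. DESeq2 1.42.0, other scalings and filters, 2-group fits, a replicate block and leaving out each library were tried as alternatives.

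The members, gene lists and rules were chosen with earlier results of these data known. Named genes were all members, both targets, up to 4 called genes per list with the largest absolute change against plko, and 3 nearest patterns for the most abundant and most changed members. Some list genes are not reported by name here. TXNIP and the marker PECAM1 matched no single ID. Same-numbered libraries of shAKR1B1 and shSORD deviated together (correlations 0.102, 0.193 and 0.144), and those with plko did not (-0.0285 to 0.0314). The main fit used no pairing, also for shAKR1B1 against shSORD. The replicate block, tried as an alternative, was set over all 9 libraries, plko included. No pair of libraries agreed within sampling noise, the lowest chi-square per gene being 2.37. The floors of 3 counts cover counting error only. The intervals come from the quasi-likelihood fit and also take in the variation between libraries of a group.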

Additional observations from a re-analysis of the deposited data

Results flagged for a closer look

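SLC2A12 was called in opposite directions against plko in the 2 knockdowns, and the difference between them was itself called: the log2 fold change of shAKR1B1 against shSORD was 0.99 (edgeR adjusted p = 1.47e-05), with all 3 shAKR1B1 libraries above and all 3 shSORD libraries below the plko libraries. SLC2A14 was also called in opposite directions, with a log2 fold change of -2.09 for shAKR1B1 against shSORD (edgeR adjusted p = 8.43e-05) at 10 to 57 counts in the knockdown libraries. Its call with shAKR1B1 against plko ended with DESeq2 and without plko replicate 2, shAKR1B1 replicate 2 or shAKR1B1 replicate 3. The part of reads shared with SLC2A3, which is far more abundant, was not tested.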

How the results depend on the processing

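Of 290 alternative values of the members' log2 fold changes, 269 kept their direction and their side of the threshold. The number of members called, SLC5A1 included, was 5 to 7 with shAKR1B1 against plko, 4 to 6 with shSORD against plko and 5 to 6 between the knockdowns. In the main fit 57.4%, 56.5% and 30.7% of all tested genes were called in these comparisons. SLC5A1 passed the filter only through shAKR1B1. Without the filter, the number with shAKR1B1 against plko also took in SLC2A10, whose 0 to 4 counts per library are too few to support a level. Values that turned sign were all uncalled. SLC2A3 with shAKR1B1 against plko became 0.048 with upper-quartile scaling, 0.032 with total-count scaling, 0.021 with the stricter filter of 1 CPM in 3 libraries and 0.0082 with only the 2 groups compared, and lay between -0.022 and 0.0082 when each replicate was left out. SLC5A1 with shSORD against plko lay between -0.38 and 0.24 when each replicate was left out, above 0 without plko replicate 1 or shSORD replicate 2. With the replicate block, the list of trafficking and activity genes had 5 calls between the knockdowns in place of 2, and no member call changed. The same list had 5 calls with no filter, 4 with DESeq2, 5 without shSORD replicate 2 and 6 without shSORD replicate 3. The sodium pump list had 1 call between the knockdowns with the stricter filter and 4 without shSORD replicate 2. The mean summed level of the members in plko was 69.95 CPM per kb with upper-quartile scaling and 70.3 with total-count scaling. The stricter filter removed SLC5A1. The causes of these changes were not tested. SLC2A2, SLC2A5 and SLC2A10 are limited by depth, and SLC2A3 and SLC2A12 by reads that similar or overlapping genes could share. TBPL1 overlaps 38.9% of the SLC2A12 exon bases and had 480 to 757 counts per library. Opposite-strand genes overlap 2.71% of the SLC2A1 and 13.5% of the SLC5A9 exon bases, and had 32 to 69 and 0 to 5 counts. The part of shared reads was not tested for any of these genes.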
